A study of Mus musculus with 2 samples.

Results

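The 9 genes described here encode the TGF-beta ligands (Tgfb1, Tgfb2 and Tgfb3), their receptors (Tgfbr1, Tgfbr2 and Tgfbr3) and latent TGF-beta binding proteins (Ltbp1, Ltbp2 and Ltbp3). They were taken by name, and all 9 were among the 27998 genes of the files. The data were single-cell transcriptomes of muscle mononuclear cells from C57BL/6J mice, with 1 library made from quadriceps, in the limb, and another from diaphragm, which drives breathing. In total 10 mice were used, cells of several animals were combined for each tissue, and viable cells were sorted by light scatter after enzymatic digestion and a density gradient. Neither age nor treatment was given in the labels, and with 1 library per tissue there was no replicate, so no test across samples was made and tissue, pool of animals and library cannot be told apart.

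TGF-beta is a secreted cytokine that is made as an inactive precursor. Its propeptide stays wrapped around the mature ligand, and a latent TGF-beta binding protein (LTBP) tethers this complex to fibrillin and fibronectin in the extracellular matrix until integrins, thrombospondin or proteases release it. The free ligand binds the type II receptor Tgfbr2, which recruits and phosphorylates the type I receptor Tgfbr1, and this in turn phosphorylates Smad2 and Smad3. Tgfbr3 (betaglycan) is a co-receptor that presents ligand, above all Tgfb2. In skeletal muscle the pathway is known for matrix production by fibro-adipogenic progenitors (FAPs), the Pdgfra+ connective tissue progenitors, and for restraining muscle stem cells.

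A UMI (unique molecular identifier) stands for 1 captured transcript, and FAPs held 62.9% of the Tgfb1 and 63.0% of the Tgfb2 UMIs. The levels of these genes were highest in different cell classes, as described below, so their promoters are shown first as a pair. Each is the RefSeq window of 300 bases on the GRCm38.p6 build, from 250 bases before to 50 after the start site, printed on the strand of its gene, with capitals marking motif matches on either strand. The Tgfb1 window is chr7:25686752-25687051 (plus strand) and the Tgfb2 window is chr1:186705940-186706239 (minus strand).
Tgfb1: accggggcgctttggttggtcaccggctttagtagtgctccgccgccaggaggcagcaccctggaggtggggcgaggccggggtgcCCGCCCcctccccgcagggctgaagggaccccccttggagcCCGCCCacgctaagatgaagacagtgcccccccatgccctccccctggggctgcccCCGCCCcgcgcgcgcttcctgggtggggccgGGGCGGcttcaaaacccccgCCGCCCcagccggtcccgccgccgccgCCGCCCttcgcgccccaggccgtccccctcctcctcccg
Tgfb2: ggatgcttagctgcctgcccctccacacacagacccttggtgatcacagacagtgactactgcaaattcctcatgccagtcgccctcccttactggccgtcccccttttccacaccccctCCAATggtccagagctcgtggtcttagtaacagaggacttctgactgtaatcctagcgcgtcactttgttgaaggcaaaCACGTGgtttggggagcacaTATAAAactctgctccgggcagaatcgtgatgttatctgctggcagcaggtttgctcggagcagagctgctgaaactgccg
The capitals in the Tgfb1 window are 6 matches to the GC box GGGCGG, which 35.7% of 32851 such windows held, and 77.0% of its bases were G or C. The capitals in the Tgfb2 window are 1 TATA box (TATAAA, found in 13.6% of windows) that begins at position -31 from the start site, 1 E-box (CACGTG, 7.15% of windows) that begins at -51, and 1 CCAAT box (CCAAT, 37.4% of windows). The windows differed in base composition too, with 54.3% G or C in that of Tgfb2 against a median of 52.7% over all windows. Neither window held the cyclic AMP response element TGACGTCA (1.79% of windows) or the AP-1 site TGANTCA (7.81% of windows), where N is any base. Windows were given for 7 of the 9 genes. These matches describe letters only.

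A total of 7440 barcodes lay within the UMI limits, 5010 of quadriceps and 2430 of diaphragm. Levels are given as CPM (counts per 1000000 UMIs of nuclear genes, from the sum over all cells of a class), and their 95% Poisson intervals cover counting error only. CPM depends on transcript capture, so values are compared between cells for 1 gene and not between genes. FAPs were the cells with at least 1 Pdgfra UMI and at least 50 Dcn UMIs, 2339 in quadriceps (46.7% of the cells kept) and 2008 in diaphragm (82.6%). The 8 FAP markers, of which the rule used Pdgfra and Dcn, summed to 66362 CPM in quadriceps and 63424 CPM in diaphragm FAPs, against 999 CPM in quadriceps B cell-like cells. The other classes were rebuilt by clustering without the members and are named by their markers: smooth muscle or pericyte-like (1231 quadriceps and 46 diaphragm cells), B cell-like (215 and 47), satellite cell-like (200 and 20), T cell-like (131 and 85), Schwann-like (176 and 2), tenocyte-like (80 and 0), NK cell-like (79 and 6), endothelial-like (57 and 10) and, with 78 and 13, macrophage or monocyte-like. Cells that clustered with FAPs but missed the rule (256 and 116) and unnamed clusters (168 and 77) stayed out of the order of classes. In tenocyte-like cells the FAP markers summed to 59422 CPM, near their level in FAPs. The 8 tenocyte markers summed to 37526 CPM there and to 603 CPM in quadriceps FAPs. The Schwann-like cluster also had 3 raised endothelial markers, the macrophage-like cluster 4 raised neutrophil markers, and the endothelial-like class joined a Cytl1-led cluster with a Ccl21a-led one. A total of 5 barcodes were shared by the libraries. In 2839 quadriceps and 768 diaphragm cells over 5% of UMIs were mitochondrial, with a median of 17.4% in quadriceps smooth muscle-like cells. The 8 smooth muscle markers summed to 454 CPM in B cell-like cells of quadriceps, which should lack them, and to 8.46 CPM in those of diaphragm, against 66457 CPM in the quadriceps smooth muscle-like class. Other quadriceps classes held more: smooth muscle markers summed to 3206 CPM in endothelial-like, 2938 CPM in Schwann-like and 1743 CPM in macrophage or monocyte-like cells, and FAP markers to 8020 CPM in Schwann-like and 3507 CPM in endothelial-like cells. The part of such RNA in the low member levels of these classes was not tested.

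The highest level of Tgfb1 was in an immune class, and those of Tgfb2 and Tgfb3 were in smooth muscle or pericyte-like cells. Tgfb1, the most widely studied ligand (chr7:25687002-25705077), was highest in quadriceps in macrophage or monocyte-like cells at 323 CPM (interval 278 to 374), then B cell-like cells at 254 CPM (216 to 297), NK cell-like cells at 230 CPM (179 to 291) and endothelial-like cells at 197 CPM (134 to 277). Each of these intervals overlapped that of its neighbour in the order. FAPs were at 40.1 CPM (37.6 to 42.6), smooth muscle or pericyte-like cells at 27.4 CPM and satellite cell-like cells, the muscle stem cells, at 5.46 CPM from 5 UMIs. T cell-like cells gave 105 CPM (81.0 to 134) in quadriceps and 243 CPM (199 to 294) in diaphragm, with intervals apart, but different clusters filled the class: a Ccl5-led one had 112 quadriceps and 39 diaphragm cells and an Il7r and Cxcr6-led one had 19 and 47. By contrast, the B cell-like cells of the tissues overlapped (254 and 262 CPM). The macrophage or monocyte-like class also held neutrophil markers, which summed to 7296 CPM in quadriceps. With at most 5% mitochondrial UMIs, over both libraries, Tgfb1 was 406 CPM in a neutrophil-like cluster and 215 CPM in macrophage or monocyte-like cells. Because FAPs were the most numerous cells, they still held 62.9% of all Tgfb1 UMIs, against 69.1% of the UMIs of all genes.

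Tgfb2 (chr1:186622792-186705989, minus strand) was not detected in any B, T or macrophage-like cell of either library. In quadriceps B cell-like cells the 0 UMIs allowed up to 4.76 CPM (3 counts). It was highest in smooth muscle or pericyte-like cells at 165 CPM (158 to 172) in quadriceps and 126 CPM (93.1 to 166) in diaphragm. In quadriceps the next were endothelial-like cells at 129 CPM (79.8 to 197, from 21 UMIs), FAPs at 125 CPM (120 to 129), tenocyte-like cells at 114 CPM (86.9 to 146) and satellite cell-like cells at 98.2 CPM (79.0 to 121), whose neighbours in the order overlapped. Schwann-like cells, which also held FAP and smooth muscle markers, stood below at 21.9 CPM (13.5 to 33.5).

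Tgfb3 (chr12:86056745-86079041, minus strand) was a ligand of the same cells, with a steeper order. Smooth muscle or pericyte-like cells gave 303 CPM (293 to 312) in quadriceps and 231 CPM (186 to 284) in diaphragm. Tenocyte-like cells followed at 155 CPM (123 to 192), and the next 3 classes of quadriceps, endothelial-like cells at 61.4, satellite cell-like cells at 55.6 and FAPs at 47.0 CPM, overlapped. As with Tgfb2, no UMI was found in B cell-like or macrophage-like cells. The smooth muscle-like class held 49.1% of all Tgfb3 UMIs and 30.9% of all Tgfb2 UMIs, against 19.3% of the UMIs of all genes. Across 15 class and tissue sums of at least 20 cells, which shared libraries, Pearson's r of log2 levels was 0.93 between Tgfb2 and Tgfb3 and was -0.61 between Tgfb1 and Tgfb2.

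**Figure D1:**
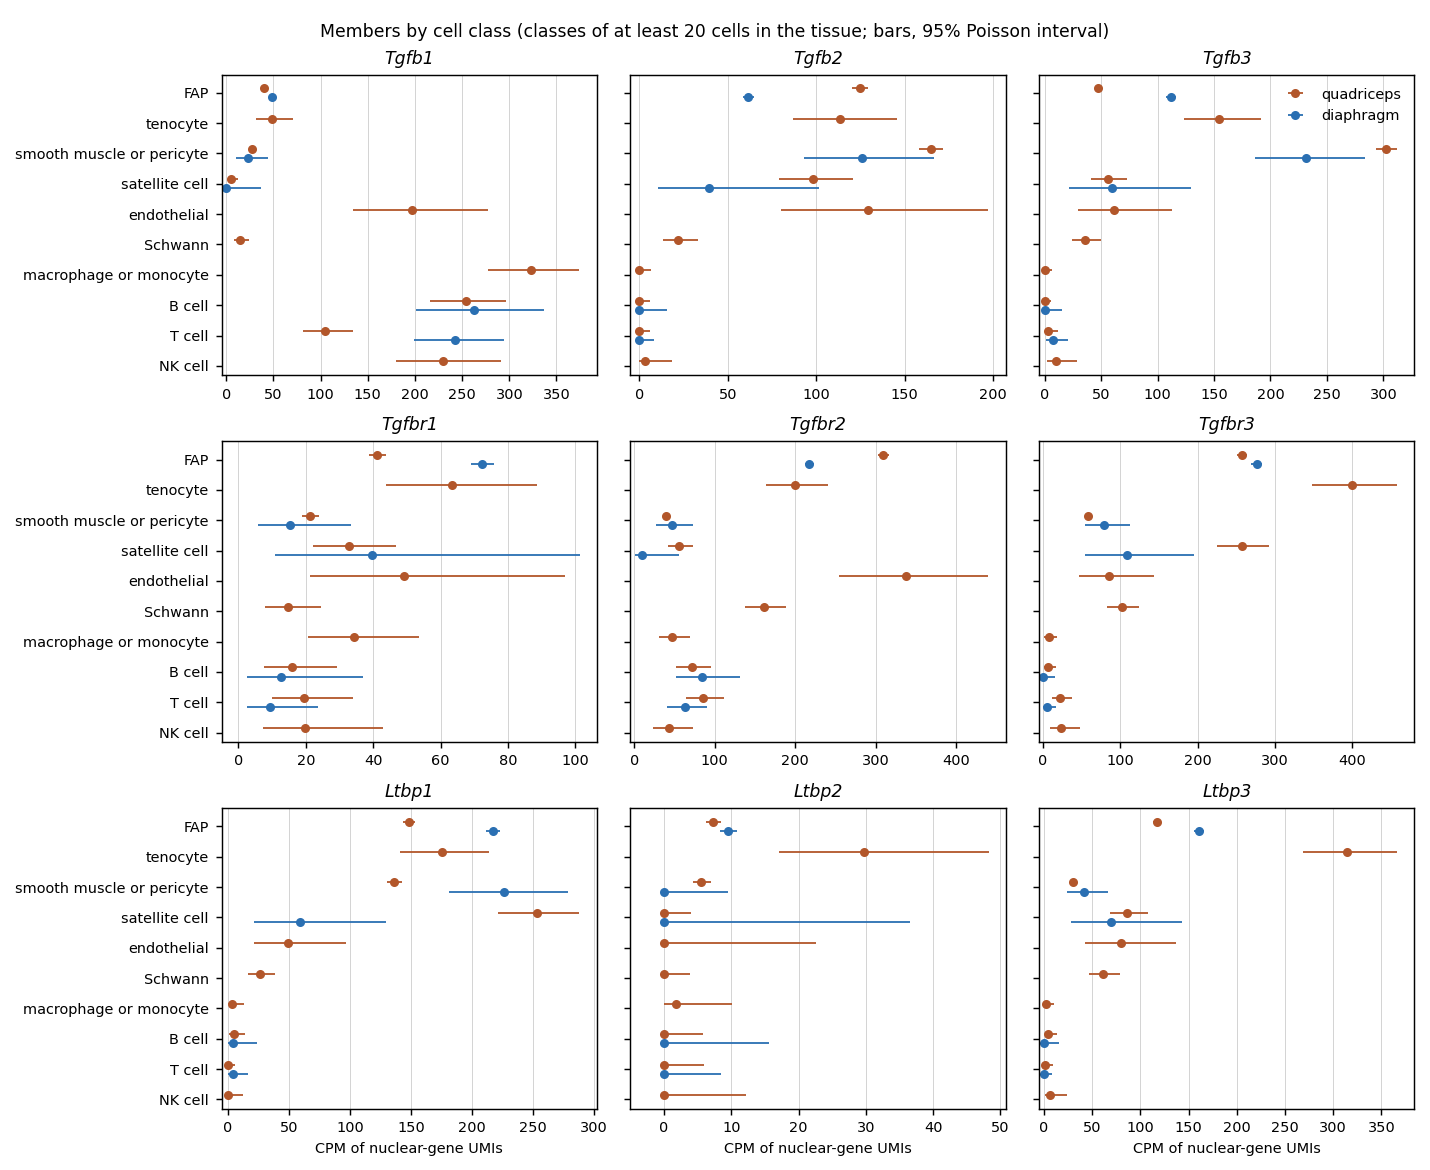
Level of each gene (CPM of nuclear-gene UMIs, linear axes that differ between panels) in each cell class of quadriceps and diaphragm with at least 20 cells, with 95% Poisson intervals as bars. Tgfb1 was highest in the macrophage-like class, which also held neutrophil markers, at 323 CPM in quadriceps. Tgfb2 and Tgfb3 were at 0 there and highest in the smooth muscle-like class, at 165 and 303 CPM in quadriceps.

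The receptors were also unevenly shared. Tgfbr2 (chr9:116084293-116175360, minus strand), the ligand-binding kinase, was highest in quadriceps in endothelial-like cells at 338 CPM (254 to 440) and in FAPs at 310 CPM (303 to 316), which overlapped. Tenocyte-like cells at 199 CPM (163 to 241) and Schwann-like cells at 162 CPM (137 to 189) came next. Every other class of quadriceps lay between 38.9 CPM in smooth muscle or pericyte-like cells and 85.6 CPM in T cell-like cells. The smooth muscle-like cells, highest for Tgfb2 and Tgfb3, thus had the lowest Tgfbr2 level of the 10 classes in quadriceps, although its interval (35.7 to 42.4) overlapped those of NK, macrophage and satellite cell-like cells.

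Tgfbr1 (chr4:47353222-47414931), the signalling partner, spanned a narrower range. In quadriceps it ran from 63.3 CPM (43.8 to 88.5) in tenocyte-like cells, through 41.1 CPM (38.6 to 43.7) in FAPs, to 14.6 CPM (7.98 to 24.5) in Schwann-like cells. The co-receptor Tgfbr3 (chr5:107106570-107289629, minus strand) was highest in tenocyte-like cells at 400 CPM (349 to 458), then equal within error in satellite cell-like cells at 257 CPM (226 to 293) and FAPs at 257 CPM (251 to 263). B cell-like cells gave 6.35 CPM and macrophage-like cells 7.22 CPM, each from 4 UMIs. In GENCODE M21, 3 gene models on the same strand overlap Tgfbr3 and 1 of them covers part of an exon, so some of its UMIs could be split between models.

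The latency proteins were highest in quadriceps in satellite cell-like cells (Ltbp1) and tenocyte-like cells (Ltbp2 and Ltbp3). Ltbp1 (chr17:75005568-75392512), which binds the latent forms of all 3 ligands, was highest in quadriceps in satellite cell-like cells at 253 CPM (222 to 288), followed by tenocyte-like cells at 175 CPM (141 to 214), FAPs at 148 CPM (144 to 153) and smooth muscle or pericyte-like cells at 136 CPM (130 to 143). In diaphragm, smooth muscle or pericyte-like cells at 226 CPM (181 to 278) and FAPs at 217 CPM (211 to 223) overlapped, and the 20 satellite cell-like cells gave 59.4 CPM from 6 UMIs (21.8 to 129). Ltbp3 (chr19:5740904-5758532), another carrier of latent ligand, was highest in tenocyte-like cells at 315 CPM (269 to 366), and FAPs followed at 117 CPM (113 to 122). Ltbp2 (chr12:84783212-84876532, minus strand), an LTBP that does not bind latent TGF-beta and is known for its part in elastic fibres, had few UMIs. Tenocyte-like cells gave 29.8 CPM from 16 UMIs and FAPs 7.29 CPM. Ltbp2 was at 0 UMIs in B, T, NK, Schwann, endothelial and satellite cell-like cells of quadriceps. Immune classes of quadriceps were at or below 6.58 CPM for Ltbp1, Ltbp2 and Ltbp3.

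Classes differed in depth, so each cell was also thinned to 1000 UMIs before counting the cells in which a gene was seen. Tgfb1 was found in 24.1% of quadriceps B cell-like cells (exact binomial interval 18.5% to 30.4%) and in 4.53% of quadriceps FAPs (3.72% to 5.45%). Without thinning, at median depths of 2997 and 10782 UMIs, the shares were 47.4% and 26.9%. Tgfb2 was found in 12.2% of thinned quadriceps FAPs and in 5.88% of diaphragm FAPs, and without thinning in 57.7% and 35.1%, against none of the 215 quadriceps B cell-like cells. The order of these shares was that of the levels.

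By likeness of pattern over the same 15 sums, among 10969 genes, the gene nearest to Tgfb1 was Samd9l (r = 0.95), to Tgfb2 Creb3l2 (0.97), to Tgfb3 Pacsin3 (0.95), to Tgfbr1 Nupr1 (0.90), to Tgfbr2 Arl15 (0.88), to Tgfbr3 P3h4 (0.97), to Ltbp1 Sobp (0.95), to Ltbp2 Adgrg2 (0.93) and to Ltbp3 Sgce (0.97). Prr13 and Mta3 came next for Tgfb1, and Strn3 and Rhoj for Tgfb2. Strn3 and Fam131a followed for Tgfb3, P4hb and Cxcl16 for Tgfbr1, Mesdc1 and Cnpy4 for Tgfbr2, and Ltbp3 and Mxra8 for Tgfbr3. Cyr61 was also near Ltbp1, and the next places went to Dio2 and Anxa8 for Ltbp2, and Pkd2 and Pam for Ltbp3. Ltbp3, itself a member, was the second nearest gene to Tgfbr3 (r = 0.95).

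Within FAPs the design sets diaphragm against quadriceps, and the ligands went in opposite directions. Tgfb2 was 125 CPM in quadriceps and 61.5 CPM (58.4 to 64.6) in diaphragm FAPs, 2.03 times as high in quadriceps (1.91 to 2.15). Tgfb3 was 47.0 CPM (44.4 to 49.8) in quadriceps and 112 CPM (108 to 116) in diaphragm FAPs, 2.38 times as high in diaphragm (2.22 to 2.55). Tgfb1 differed least, with 40.1 CPM in quadriceps and 48.3 CPM in diaphragm (ratio 1.20, 1.11 to 1.31).

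Both signalling receptors differed as well. Tgfbr1 was 41.1 CPM in quadriceps and 72.4 CPM in diaphragm FAPs (ratio 1.76, 1.63 to 1.90). Tgfbr2 was 310 CPM in quadriceps and 218 CPM in diaphragm FAPs, 1.42 times as high in quadriceps (1.37 to 1.47). Tgfbr3 was nearly level, at 257 CPM in quadriceps and 276 CPM in diaphragm (ratio 1.07, 1.04 to 1.11). The LTBPs were higher in diaphragm, Ltbp1 at 217 against 148 CPM (1.46, 1.40 to 1.52), Ltbp3 at 161 against 117 CPM (1.37, 1.31 to 1.44) and Ltbp2 at 9.51 against 7.29 CPM (1.30, 1.07 to 1.59). No interval of these ratios held 1, but these intervals do not cover the difference between animals or between preparations.

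With at least 2-fold taken as called among genes of at least 20 CPM in the higher tissue, 8 of the 9 members could be called (all but Ltbp2). One was called higher in diaphragm (Tgfb3) and 1 in quadriceps (Tgfb2), while of all 6587 genes 2.91% were called higher in diaphragm and 3.2% in quadriceps. The Tgfb2 call sat on the threshold at a log2 difference of -1.01 and was lost in 8 of 13 alternative settings, whereas the Tgfb3 call was kept in all 13. The median log2 difference of the 8 members was 0.36, against -0.11 over all genes. At the threshold of the FAP rule, the 27 quadriceps cells just inside its Dcn minimum gave 213 CPM of Tgfb2 and the 33 just outside it gave 226 CPM, and in diaphragm 10 cells inside gave 117 CPM and 9 outside gave 99.95 CPM.

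**Figure D2:**
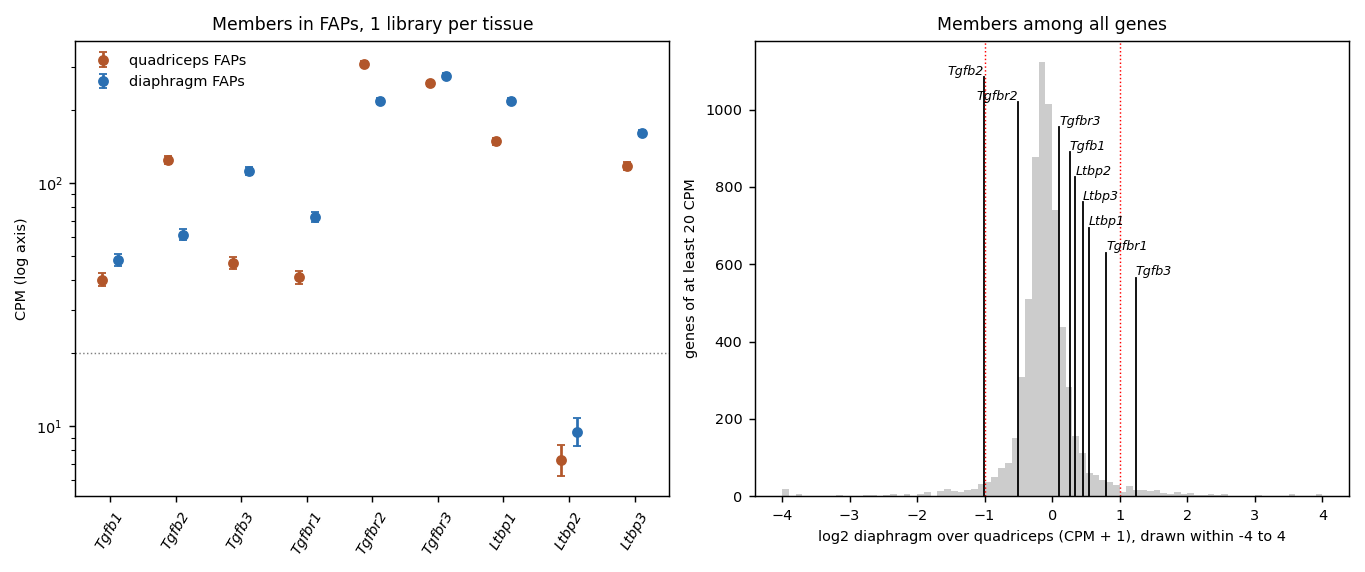
Left, level of each gene in quadriceps and diaphragm FAPs (CPM, log axis; bars, 95% Poisson intervals; dotted line, 20 CPM). Right, the log2 difference of each gene (vertical lines; Ltbp2 was below 20 CPM in both tissues) over a histogram of all 6587 genes, with the 2-fold limits dotted; Tgfb3 lay beyond the limit on the diaphragm side and Tgfb2 on that of quadriceps.

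These differences went with other differences between the libraries. Of 15 immediate early genes, which respond within minutes to stress such as tissue digestion, 14 were at least 2-fold higher in diaphragm FAPs, with a median log2 difference of 2.53; Fos was 276 CPM in quadriceps and 2807 CPM in diaphragm. Their part in the member differences was not tested. The 8 smooth muscle markers summed to 1998 CPM in quadriceps FAPs and 174 CPM in diaphragm FAPs, with all 8 detected in both. Without the 55 quadriceps cells of the subcluster that held most of them, Tgfb2 was at a log2 difference of -0.98 and Tgfb3 at 1.48. Tenocyte markers summed to 603 CPM in quadriceps and 1850 CPM in diaphragm FAPs, and without every FAP that had a UMI of the tenocyte gene Tnmd these values were -0.97 and 1.24.

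The tissue difference was then taken within FAP subclusters, found after each gene had been centred within its library and without the members among the genes clustered on. In 8 subclusters with at least 20 cells in each tissue, Tgfb3 was higher in diaphragm in 8, with log2 differences of 0.55 to 2.73, and so was Tgfbr1 (0.45 to 1.95). The largest of these differences rested on 7 quadriceps UMIs for Tgfb3 and 5 for Tgfbr1. Intervals of the levels overlapped for Tgfb3 in the Ptx3-led subcluster, and for Tgfbr1 in those led by Ptn, Cxcl14 and Spp1. Tgfb2 was higher in quadriceps in 7 (log2 -1.48 to 0.76 over all 8), but its levels had overlapping intervals in the C4b-led (-0.25), Thbs4-led (-0.10) and Ptx3-led (-0.14) subclusters. Tgfbr2 was also higher in quadriceps in 7 (-0.65 to 0.92), although in the C4b-led subcluster it was 167 CPM in both tissues. Its intervals overlapped in the Thbs4-led and Ptx3-led subclusters too. The exception for Tgfb2 and Tgfbr2 was the small Spp1 and Apod-led subcluster with 54 quadriceps and 22 diaphragm cells. There the Tgfb2 intervals overlapped, from 16 and 14 UMIs. Ltbp1, Ltbp3 and Tgfbr3 were each higher in diaphragm in 6 of 8, and Tgfb1 and Ltbp2 in 5 of 8. Among these, intervals overlapped for Ltbp1 in the Ptx3-led subcluster, for Ltbp3 in those led by Thbs4, Ptx3 and Spp1, and for Tgfb1 in those led by C4b, Thbs1 and Spp1. For Tgfbr3 they were apart only in the Thbs1-led and Ptx3-led subclusters. In the C4b-led subcluster Tgfbr3 was higher in quadriceps, at 329 against 217 CPM, with intervals apart. The Ltbp2 count rested on few UMIs, with 9, 3 and 2 against 0 and 8 against 7 among its 5 subclusters. With the subclusters weighted equally, the log2 difference of Tgfb1 turned from 0.26 to -0.24 and that of Ltbp2 from 0.34 to -1.49.

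Single subclusters stood out for some members, as the plot of levels by subcluster shows. The Thbs4, C1qtnf3 and Tnmd-led subcluster (71 quadriceps and 504 diaphragm cells) held most of the Ltbp2, at 139 CPM in quadriceps and 27.0 CPM in diaphragm, whereas the highest value elsewhere was 7.89 CPM. The same subcluster had the highest diaphragm levels of Tgfb3 (204 CPM), Tgfbr1 (99.97 CPM), Ltbp1 (306 CPM) and Ltbp3 (221 CPM), and the highest Tgfb1 level of any in quadriceps (167 CPM). The Dmkn and Sbsn-led subcluster, with 214 quadriceps and 3 diaphragm cells, had the highest Tgfbr2 level at 547 CPM and the lowest Tgfb1 level at 7.29 CPM. Ltbp4, the LTBP that binds mainly latent Tgfb1, was at 89.7 CPM in it, against 430 to 1400 CPM in the other quadriceps subclusters. Ltbp1 was lowest in quadriceps in the Ptn and Prg4-led subcluster at 54.0 CPM, where Tgfb2 was 170 CPM.

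**Figure D3:**
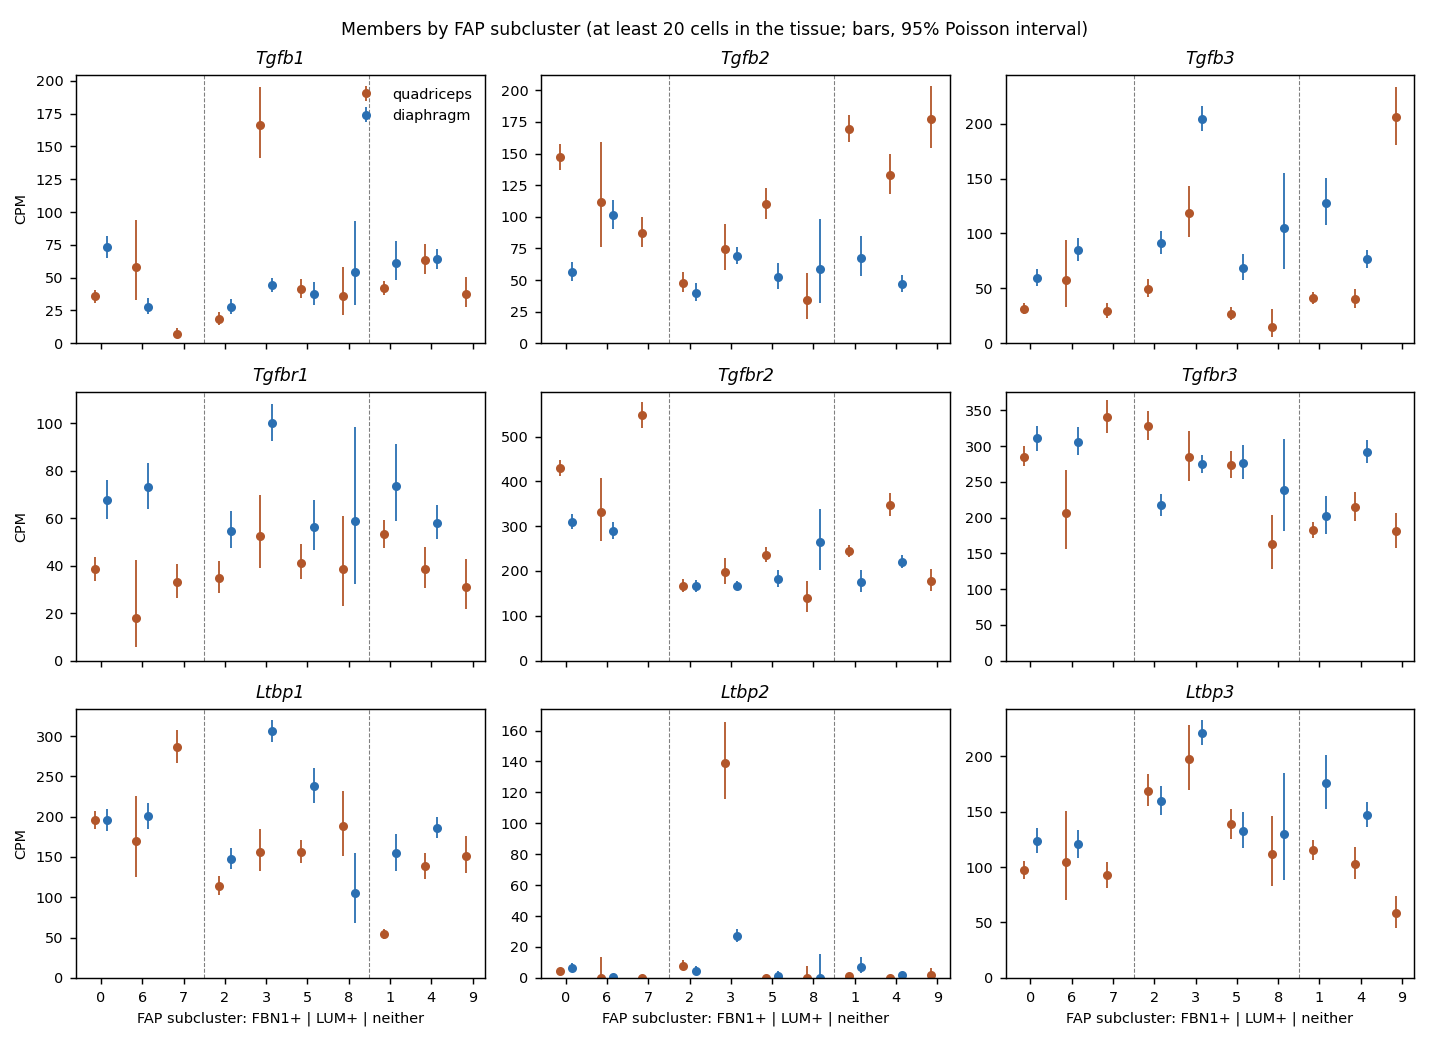
Level of each gene (CPM, linear axes that differ between panels) in the 10 FAP subclusters, grouped as FBN1+, LUM+ and neither, for quadriceps and diaphragm where the subcluster had at least 20 cells; bars are 95% Poisson intervals. Ltbp2 peaked in subcluster 3 (139 CPM in quadriceps, 27.0 CPM in diaphragm), and Tgfbr2 in the FBN1+ subcluster 7 (547 CPM); subcluster 9 was the one with smooth muscle markers.

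The study divides FAPs into an FBN1+ and a LUM+ subtype. By 9 naming genes, subclusters 0, 6 and 7 were FBN1+ (725 quadriceps and 516 diaphragm cells) and subclusters 2, 3, 5 and 8 were LUM+ (770 and 1050 cells), while 3 subclusters were neither. Different subclusters filled a subtype in the 2 tissues: subcluster 7 was a quadriceps one, subcluster 6 (led by Ptx3 and Has1) had 20 quadriceps and 229 diaphragm cells, and subcluster 3 had 71 and 504. Tgfbr2 was higher in FBN1+ FAPs, at 462 against 197 CPM in quadriceps (ratio 2.34, 2.21 to 2.49) and at 302 against 171 CPM in diaphragm (1.76, 1.66 to 1.87). Tgfb2 had ratios of 1.70 (1.53 to 1.88) and 1.31 (1.17 to 1.47), but the log2 value in diaphragm turned to as low as -0.13 among 5 other ways of dividing or filtering the cells. As sums over each subtype, Ltbp3 and Tgfb3 were higher in LUM+ FAPs. Ltbp3 was 157 against 95.9 CPM in quadriceps and 187 against 122 CPM in diaphragm. Tgfb3 was 46.7 against 31.8 CPM in quadriceps and 147 against 70.6 CPM in diaphragm. Of the LUM+ Tgfb3 UMIs, subcluster 3 held 1310 of 1792 in diaphragm and 108 of 355 in quadriceps. In quadriceps, LUM+ subclusters 2 and 3 were at 49.9 and 118 CPM, but subcluster 5 was at 26.9 CPM and subcluster 8 had 7 UMIs. FBN1+ subclusters 0, 6 and 7 were at 31.5, 57.8 and 29.5 CPM there. The Tgfb3 ratio without subcluster 3 was not tested.

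Of the 8 members that reached 20 CPM in each tissue, 0 were at least 2-fold higher in FBN1+ FAPs of both tissues and 0 in LUM+ FAPs of both, while 2.34% and 2.44% of 6152 genes were. Tgfbr2 passed 2-fold in quadriceps alone, as in 3 of 5 alternatives (log2 as low as 0.95). Tgfb3 passed it on the LUM+ side in diaphragm alone, as in 2 of 5 alternatives (as near to 0 as -0.29). Whether the tissues differ in these ratios was not tested. Ltbp2, which reached 20 CPM in quadriceps alone, was 20.01 CPM in LUM+ and 2.79 CPM in FBN1+ FAPs of quadriceps and 15.8 and 3.82 CPM in those of diaphragm, most of it from subcluster 3. Tgfbr1 differed little in either tissue (ratios of 0.91 and 0.89 for FBN1+ over LUM+), and for Tgfbr3 they were 1.03 and 1.20.

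**Figure D4:**
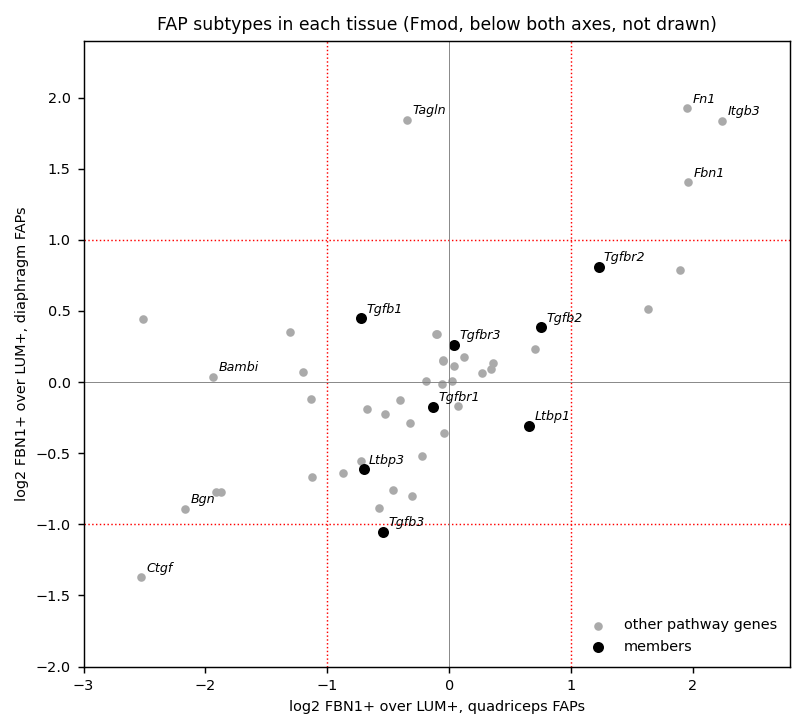
Log2 ratio of FBN1+ over LUM+ FAPs in quadriceps (horizontal) and diaphragm (vertical) for the 8 members (black) and other pathway genes (grey) of at least 20 CPM in each tissue, with 2-fold limits dotted. No member lay past 2-fold on the same side in both tissues; Tgfbr2 lay at 1.23 and 0.81 on the FBN1+ side, and Ltbp3 at -0.70 and -0.61 and Tgfb3 at -0.54 and -1.05 on the LUM+ side; Fmod, at -6.50 and -5.81, was not drawn.

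The other genes of the pathway were taken from a list of 52 (Dcn, which the FAP rule used, among them), of which 45 reached 20 CPM in FAPs. Between tissues, 4 were at least 2-fold higher in diaphragm FAPs (2.91% of all genes were) and 4 in quadriceps FAPs (3.2% of all genes), with a median log2 difference of -0.07 against -0.11 over all genes. Among those higher in diaphragm were the target gene Ctgf, which encodes a matricellular protein (666 against 272 CPM, ratio 2.44), the proteoglycan Bgn, which binds TGF-beta (3238 against 1291 CPM, ratio 2.51), and the pseudoreceptor Bambi (29.5 against 13.8 CPM, ratio 2.14). Those higher in quadriceps were the integrin subunit Itgb3, the proteoglycan Fmod, and the smooth muscle genes Acta2 and Tagln.

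Itgb3 was 30.9 CPM in quadriceps and 14.7 CPM in diaphragm FAPs, 2.10 times as high, and passed 2-fold in 7 of 13 alternatives. Of the genes higher in diaphragm, Bambi passed in the same direction in 11, Ctgf in 12 and Bgn in 13. Fmod was 131 and 35.0 CPM, but it turned to 1.35 (log2, higher in diaphragm) without FAPs that had a Tnmd UMI. Acta2, at 976 CPM in quadriceps and 12.7 CPM in diaphragm, and Tagln, at 578 and 10.4 CPM, fell to log2 differences of -3.14 and -2.14 without the smooth muscle-like subcluster, 92.7% of whose cells the doublet caller Scrublet marked.

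By role, 0 of 4 transducers and 0 of 9 inhibitors reached 2-fold. Over all genes, 2.91% were called higher in diaphragm and 3.2% in quadriceps, so counts near 0 in lists this short do not set a role apart. In quadriceps and diaphragm, Smad2 was at 30.6 and 28.4 CPM, Smad3 at 32.8 and 24.8 CPM and the inhibitory Smad7 at 30.6 and 53.4 CPM. Of the 5 storage and latency genes that reached 20 CPM, 0 passed 2-fold, and Ltbp4 was 863 CPM in quadriceps and 1297 CPM in diaphragm. Among the 10 activators 1 passed, Itgb3. The collagens Col1a1, Col1a2 and Col3a1, also targets, had ratios of 1.13, 1.08 and 0.90. Between subtypes, 3 of 43 pathway genes were at least 2-fold higher in FBN1+ FAPs of both tissues (Itgb3, Fn1, which encodes fibronectin, and Fbn1, itself a naming gene) and 2 in LUM+ FAPs (Fmod and Ctgf), while 2.34% and 2.44% of all genes were. Fn1 was 3.88 times as high in FBN1+ FAPs of quadriceps and 3.80 times in those of diaphragm.

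Over both libraries together, most genes of the pathway list were highest in a class other than FAPs. Ltbp4 was highest in endothelial-like cells at 2735 CPM, as were Eng and Acvrl1, the endothelial TGF-beta co-receptor and type I receptor, at 534 and 257 CPM. Nrros and Lrrc32 both tether latent TGF-beta to the cell surface. Nrros was highest in macrophage or monocyte-like cells at 131 CPM, the class highest for Tgfb1, against 0.458 CPM in FAPs, and Lrrc32 in endothelial-like cells at 241 CPM. Of the activators, Thbs1 was highest in tenocyte-like cells (1571 CPM) and Itgb8 in Schwann-like cells (254 CPM against 11.3 CPM in FAPs, the next). Smad7, the feedback inhibitor, was highest in T cell-like cells at 224 CPM.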

How the data were processed

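Single cells of quadriceps and diaphragm were measured in 1 droplet library each. The authors deposited raw UMI counts per gene and barcode, made with Cell Ranger 3.0.0 on mm10 per the submitters' notes; 50854519 UMIs over 5159 barcodes in quadriceps and 28545242 over 2499 in diaphragm. Barcodes needed at least 1000 UMIs, with an upper limit 3 median absolute deviations (scaled, log10 UMIs) over the library median, with no mitochondrial limit, since 5% removed the smooth muscle-like class. The 13 mitochondrial genes were left out of CPM totals.

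Cells were clustered together over 20 principal components of 2000 variable genes (20 neighbours, Leiden resolution 1.0, leidenalg 0.10.2), without the members and the pathway list. FAPs by the rule came first, and other clusters took the type with the largest share of raised markers (at least 3, each in at least 10% of cells and 2-fold up). FAPs were clustered again over 10 components at resolution 0.5, each gene centred within its library, also without the 9 subtype genes. A subcluster was FBN1+ or LUM+ when at least 3 naming genes of its side and at most 1 of the other were above the other FAPs, unless Scrublet (scanpy 1.11.5) marked most of it. Naming thresholds were set after seeing the clusters. Scrublet marked 1.90% of quadriceps and 0.160% of diaphragm barcodes (a rate too low to take its diaphragm calls as a doublet estimate), and beyond that naming rule no doublet was removed.

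Folds used a pseudocount of 1 CPM on the log2 scale, ratios none. Ratio intervals are exact and conditional on the sum of both counts. Fold calls and intervals were run on simulated Poisson counts, the model that the intervals assume. These counts held no variation between cells, animals or libraries, and all changes in them were larger than 2-fold. The simulation therefore cannot show how the intervals or calls near 2-fold hold in real libraries. Ltbp4 has a second row, all at 0, which was not used. The members, lists and settings were chosen with earlier results of these data known. All 9 members were named, with pathway genes past 2-fold and the 3 nearest genes by pattern, except for some results that are not reported here; other pathway genes, leading genes and subclusters were chosen after their values were seen. Gene positions are from GENCODE M21 (GRCm38, the files' build). Alternatives changed the barcode and doublet filters, the FAP rule, scaling, weighting, floor, pseudocount and clustering.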

Additional observations from a re-analysis of the deposited data

Results flagged for a closer look

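Some FBN1+ against LUM+ ratios in FAPs pointed opposite ways in the tissues, with both counting intervals clear of 1; with 1 library per tissue, the difference was not tested. Tgfb1 was lower in FBN1+ FAPs of quadriceps (log2 -0.72) and higher in those of diaphragm (0.45). Ltbp1 was higher in FBN1+ FAPs of quadriceps (0.66) and lower in those of diaphragm (-0.31). The diaphragm value was 0.09 with Scrublet calls left out, a setting in which FAPs were also clustered and named again. It kept its sign in the other 4 alternatives. Among pathway genes, Acta2 (below 20 CPM in diaphragm) was at -0.34 and 0.91 and Tagln at -0.35 and 1.85, in quadriceps and diaphragm. Different subclusters filled the subtypes in each tissue: Tgfb1 was 7.29 CPM in FBN1+ subcluster 7 (214 quadriceps and 3 diaphragm cells) and 167 CPM in the 71 quadriceps cells of the Thbs4 and Tnmd-led LUM+ subcluster, against 44.1 CPM in its 504 diaphragm cells.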

How the results depend on the processing

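With 1 library per tissue no setting has replicate error, and intervals cover counting only. No paired analysis was possible because the labels give 1 sample per group and no test was run. Among 13 settings for diaphragm over quadriceps FAPs, Tgfb3 ranged from 1.09 to 1.48 (log2), Tgfb2 from -1.06 to -0.74, Tgfbr1 from 0.70 to 0.92 and Tgfbr2 from -0.56 to -0.24. The count of members at least 2-fold higher in quadriceps went from 1 to 0 with at most 5% mitochondrial UMIs, a Dcn minimum of 100, Scrublet calls left out, no Tnmd UMI, a pseudocount of 5, median of ratios scaling, subclusters weighted equally, and the smooth muscle-like subcluster left out (an alternative chosen after seeing the data). Median of ratios scaling raised the median log2 value of all genes from -0.11 to 0.0055, with Tgfb2 at -0.89 and Tgfb3 at 1.35.

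Fmod reversed to 1.35 without FAPs that had a Tnmd UMI, and Bambi to -0.65 with subclusters weighted equally. Pathway genes past 2-fold in LUM+ FAPs of both tissues went from 2 to 1 at resolution 1.0, to 1 with Scrublet calls left out and to 0 when cells were split by Fbn1 against Lum UMIs, and those in FBN1+ FAPs from 3 to 5 with Scrublet calls left out. The Ltbp2 log2 ratio of FBN1+ over LUM+ reversed from -1.80 to 0.50 in diaphragm with Scrublet calls left out. In quadriceps it reversed from -2.47 to 0.52 under the Fbn1 and Lum split. With Scrublet calls left out, FAPs were also clustered and named again, although only 1 diaphragm FAP had such a call. The diaphragm cells named FBN1+ went from 516 to 362 and those named LUM+ from 1050 to 529. The parts of the doublet filter and of the new naming in these changes were not tested. The class with the highest level was the same for 9 of 9 members at resolutions 0.5 and 2.0 and for 7 with each library clustered alone, when a mesothelial-like cluster of 21 cells was highest for Tgfbr2 and Ltbp2. It was the same for 1 of 9 with at most 5% mitochondrial UMIs, where the smooth muscle, tenocyte and endothelial-like classes were missing. In that setting Tgfb1 was highest in a neutrophil-like cluster, at 406 CPM against 215 CPM in macrophage or monocyte-like cells. Except where stated here, the cause was not tested.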
